A study of Homo sapiens with 10 samples.

Results

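Transcript levels were compared between Kasumi-1 cells treated with JOA and Kasumi-1 control cells, row by row through the table that the submitters deposited for this line. The comparison used 6 of the 10 libraries of the study, 3 control and 3 JOA. Of the 29053 rows of the table, 12130 were at 1 or more FPKM in at least 3 of the 6 libraries and were tested. FPKM counts sequenced fragments per kilobase of gene model, scaled to the size of the library, so values can be set side by side between genes.

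Kasumi-1 is an established human acute myeloid leukaemia line that carries the t(8;21) translocation and its fusion of RUNX1 with RUNX1T1. The treated group received JOA at 1 µM for 48 hours and the control group had the same 48 hours without it. The labels do not say what vehicle the controls received, and the submitters' labels give no structure or target for JOA. RNA was extracted with Trizol and made into libraries with a stranded mRNA kit, per the labels. All cells are of 1 line. No label says that the numbered libraries came from separate cultures, and p-values therefore cover the spread between these libraries alone, which could be technical.

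As background, the RUNX1-RUNX1T1 fusion holds myeloid progenitors at an immature stage, and these blasts keep high KIT, a stem cell factor receptor, and high MPO, the granule peroxidase. The transcription factor NRF2 controls antioxidant genes, TFEB and TFE3 control genes of lysosomes and autophagy, and the ERK kinase cascade switches on immediate early genes and its own feedback inhibitors. Growth of blasts draws on ribosome assembly in the nucleolus, on chaperones that fold new proteins, and on sterol synthesis.

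Markers of the labelled cell type were present. Of 12 myeloblast markers listed, 8 had a row and all 8 were tested, and none was called. MPO was at 6096, 5371 and 5818 FPKM in the controls and 5856, 5289 and 5297 FPKM with JOA. KIT was at 224, 322 and 185 FPKM in control libraries 1 to 3 and 213, 309.6 and 164 FPKM in JOA libraries 1 to 3. Sums over listed markers of other lineages were low: erythroid 4.27 to 4.9 FPKM in controls and 4.52 to 5.74 with JOA, and megakaryocyte 1.52 to 2.14 and 1.38 to 1.6. The T and NK cell sum, 18.5 to 28.1 in controls and 18.5 to 26.2 with JOA, was mostly CD4. The epithelial and fibroblast sum, 35.5 to 44.5 and 33.1 to 43.3, was mostly EPCAM, and the B cell sum, 6.49 to 12.9 and 3.45 to 7.45, held IGLL1, which is described further on, beside PAX5 and CD79A. Libraries held 14967461 to 16387968 reads, as recovered from the steps between FPKM values and up to a common factor. These totals leave out 9 rows for which no whole reads were recovered, the abundant MPO row among them.

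The 3 library numbers differed from each other in both groups. Same-numbered control and JOA libraries deviated from their group means together, with correlations of 0.329, 0.499 and 0.423. Differently numbered ones gave -0.062 or below. Deviations from a group mean cancel within the group, so positive same-numbered values make the others negative on average. The negative values are therefore not separate evidence for the pairing. Number 2 stood farthest from the others in 27 of 31 rows that differed at least 2-fold between pairs and had 100 or more reads in every library. HGF, a growth factor, was at 2.90, 15.8 and 2.65 FPKM in the controls and 3.50, 18.2 and 3.97 FPKM with JOA, so that both libraries numbered 2 were high whatever the treatment. LYZ, the lysozyme of myeloid cells, was low in both, at 11.7, 4.08 and 12.9 FPKM in control libraries 1 to 3 and 12.01, 4.32 and 14.5 FPKM in JOA libraries 1 to 3. What the numbers stand for is not in the labels. Across all tested rows the range of the 3 pair means (control and JOA averaged) had a median of 0.181 on the log2(FPKM + 1) scale. The median size of change with JOA was 0.111. A range over 3 means and a difference between group means are unlike measures, so these values do not rank library number against treatment.

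**Figure D1:**
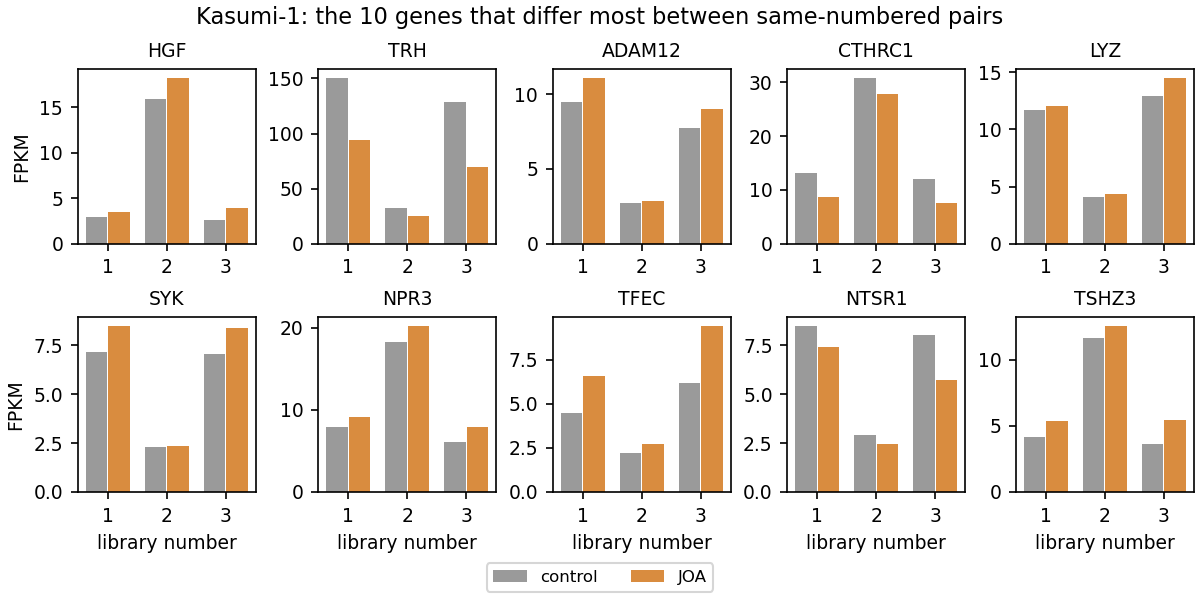
FPKM (linear axis) in the control and JOA library of each number, for the 10 genes whose pair means differed most among those with a symbol, a mean of at least 5 FPKM and at least 100 reads in every library. Bars are single libraries. In each gene number 2 stands apart from numbers 1 and 3, as for HGF at 15.8 and 18.2 FPKM against 2.65 to 3.97 FPKM in the other libraries.

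The paired and the unpaired test gave different counts. With no pairing, limma called 0 of 12130 rows at a Benjamini-Hochberg adjusted p under 0.05 (lowest adjusted p = 0.115), and 1986 rows (16.4%) were at an unadjusted p under 0.05. With the library number as a block, 990 rows were called, 8.16% of those tested. Of these, 741 (6.11%) were higher and 249 (2.05%) lower with JOA. These shares are the background for the list counts below. Below, "rose", "fell" and "called" refer to this paired test alone, and adjusted p-values are from paired limma over all 12130 rows. After a gene, values are the log2 change with its standard error (SE), and numbers in square brackets are 95% intervals of the change, not adjusted for the number of rows. Leaving out any 1 pair left 0 calls, with 2598 to 3204 rows at an unadjusted p under 0.05; a fit to 2 pairs has 1 residual degree of freedom per row.

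Changes were small. Called risers had a median log2 change of 0.34 and called fallers of -0.28, on the log2(FPKM + 1) scale, which understates the change of low genes. All 741 risers and all 249 fallers moved one way in 3 of 3 pairs. Of all tested rows, 36% were higher and 17.8% lower in 3 of 3 pairs. The paired test is built on these same pair changes, so the agreement between pairs is not separate support for the calls. The median change of the risers was 0.34, 0.31 and 0.36 in pairs 1, 2 and 3, and that of the fallers -0.26, -0.29 and -0.28. The groups did not overlap for 573 of the risers and 197 of the fallers. All JOA libraries were above all controls in 16% of tested rows and below them in 7.1%. Risers were mostly genes of modest level, with a median of 7.77 FPKM, and fallers were more abundant, with a median of 25.7 FPKM, against 6.56 FPKM over all tested rows. Together the risers went from 4.105 to 5.457% of the summed FPKM of tested rows, and the fallers from 6.089 to 4.952%. In bulk samples a loss of cells of a type and less RNA per cell cannot be told apart.

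**Figure D2:**
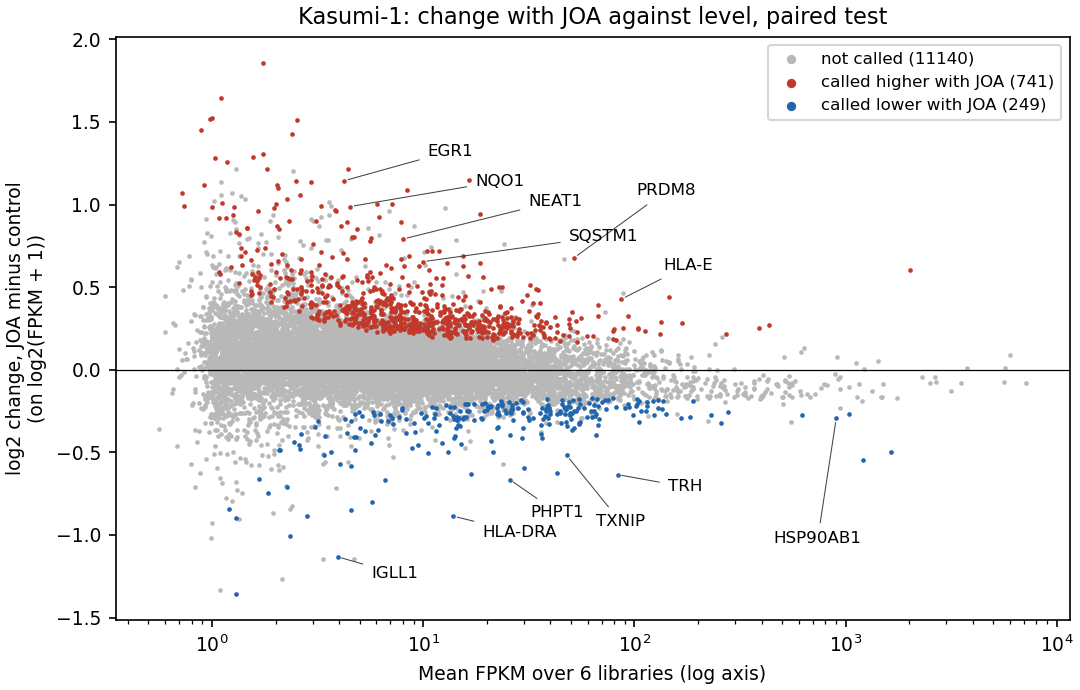
Change with JOA (log2(FPKM + 1), JOA minus control) against the mean FPKM over 6 libraries (log axis) for 12130 rows. Red points are the 741 called higher and blue points the 249 called lower in the paired test; the named genes include EGR1 at 1.14 and HLA-DRA at -0.89.

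The split between risers and fallers depended on scaling. The median change over all tested rows was 0.05 on deposited FPKM, 0.0033 after median-ratio scaling and -0.01 after quantile normalisation. With median-ratio scaling 956 rows (7.88%) were called, 468 (3.86%) higher and 488 (4.02%) lower, so risers went from 74.8% to 49% of the calls. All 468 were among the 741, and all 249 fallers kept their call. Quantile normalisation gave 504 calls (4.15%), 309 (2.55%) higher and 195 (1.61%) lower. No called row changed direction under median-ratio scaling. Genes that rose on deposited FPKM and were not called with median-ratio scaling are marked as such below. With quantile normalisation 300 of the 741 risers and 153 of the 249 fallers kept their call, and calls lost there are mostly not marked.

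The largest rise among symbol-bearing genes that the naming rule took was in EGR1, a zinc-finger transcription factor of the immediate early class (chromosome 5, 138465479 to 138469303, GRCh38.p14). It was at 1.74, 2.02 and 2.91 FPKM in the controls and 5.62, 4.62 and 8.40 FPKM with JOA. Its log2 change was 1.14, SE 0.09, adjusted p = 0.0260, and the lowest library held 99 reads and the highest 438. NQO1, a quinone reductase and a standard NRF2 target (chromosome 16, 69709401 to 69726560), went from 1.83, 3.11 and 3.12 in the control libraries to 5.10, 5.77 and 8.07 FPKM with JOA, a log2 change of 0.99, SE 0.10, adjusted p = 0.0278. In both genes the lowest JOA library was above the highest control.

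Next in size came RGCC, a regulator of cell cycle progression, at 4.93, 5.09 and 5.28 FPKM in the controls and 11.6, 7.15 and 13.1 FPKM with JOA (0.89, SE 0.15, adjusted p = 0.0378). Its 3 controls lay close together while the JOA libraries spread, number 2 being the lowest. NEAT1, the long RNA that scaffolds nuclear paraspeckles, was at 4.21, 4.83 and 7.79 FPKM in control libraries 1 to 3 and 8.65, 8.37 and 14.3 FPKM in JOA libraries 1 to 3 (0.79, SE 0.06, adjusted p = 0.0232). In NEAT1 the number 3 libraries were the highest of each group, and the lowest JOA library was still above the highest control. HOMER3, a scaffold protein, went from 7.96, 7.36 and 10.6 to 15.1, 10.9 and 19.5 FPKM (0.72, SE 0.08, adjusted p = 0.0295), with number 3 again the highest of each group. PAQR6, a membrane receptor of the progestin and adipoQ family, went from 2.79, 2.90 and 3.10 to 4.59, 5.73 and 6.00 FPKM (0.71, SE 0.07, adjusted p = 0.0279).

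RFLNB, which binds the actin cross-linker filamin, had tight groups, 11.4, 13.2 and 10.2 FPKM in the controls and 19.5, 19.7 and 18.4 FPKM with JOA (0.69, SE 0.06, adjusted p = 0.0260). PRDM8, a PR-domain nuclear protein and among the most abundant of these genes, was at 38.7, 34.1 and 45.9 FPKM in control libraries 1 to 3 and 65.1, 52.8 and 74.1 FPKM in JOA libraries 1 to 3 (0.68, SE 0.04, adjusted p = 0.0232). Each pair gained in PRDM8, with pair 2 the lowest in both groups. EVA1B (0.67, SE 0.06, adjusted p = 0.0260) and the histone gene H2BC12 (0.65, SE 0.07, adjusted p = 0.0295) were further genes of this set. H2BC12 belongs to a family of near-identical histone genes whose reads can be shared, and with 81 to 166 reads a library its level is uncertain.

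**Figure D3:**
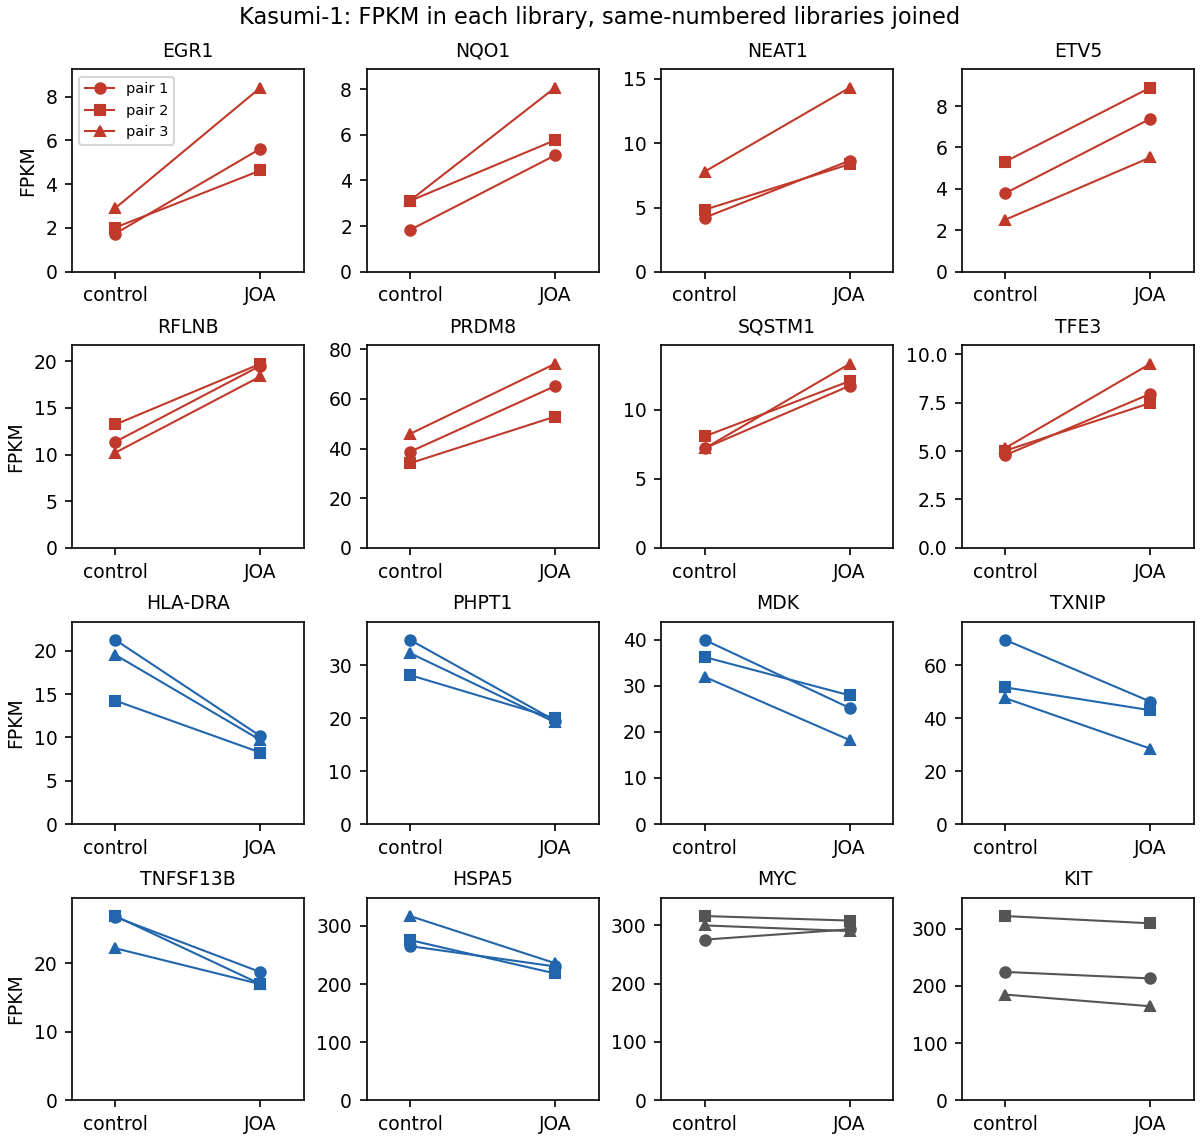
FPKM (linear axes from 0) in each control and JOA library for 16 genes, same-numbered libraries joined by a line. Red genes rose and blue genes fell in the paired test; MYC and KIT, in grey, were not called. All 3 lines run the same way in each coloured gene, as in every called row. SQSTM1, for example, went from 7.21 to 8.08 FPKM to 11.7 to 13.3 FPKM.

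Of the genes of the NRF2 antioxidant response, 24 were listed, 14 had a row and 12 were tested. Of these 7 rose and 0 fell, against 6.11% and 2.05% of all rows. Their median change was 0.29, against 0.05 over all rows, and 10 of the 12 were higher in 3 of 3 pairs, which 36% of all rows were. The list was chosen with earlier results of these data known, so its count is a description. Beside NQO1, pirin (PIR), a nuclear iron-binding protein, went from 3.02, 2.59 and 3.40 to 4.33, 3.69 and 6.35 FPKM (0.51, SE 0.09, adjusted p = 0.0395). BLVRB, a biliverdin and flavin reductase, went from 5.45, 3.95 and 5.09 to 7.33, 6.49 and 7.56 FPKM (0.49, SE 0.06, adjusted p = 0.0295), with no overlap.

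GCLM, the modifier subunit of the enzyme that starts glutathione synthesis, went from 2.94, 2.96 and 3.48 to 4.17, 3.81 and 4.64 FPKM (0.34, SE 0.06, adjusted p = 0.0402). FTH1, the ferritin heavy chain that stores iron, went from 26.6, 26.9 and 24.4 to 32.96, 33.8 and 41.4 FPKM (0.45, SE 0.09, adjusted p = 0.0495), most in pair 3. FTH1 has many processed pseudogenes whose reads can be shared, and it was not called with median-ratio scaling. PGD, which makes NADPH in the pentose phosphate pathway, was far more abundant, from 152, 148 and 152 to 178, 183 and 190.0 FPKM (0.29, SE 0.04, adjusted p = 0.0308). The glutathione-conjugate exporter ABCC1 rose as well (0.26, SE 0.04, adjusted p = 0.0382; not called with median-ratio scaling). The tested members not called included TXNRD1, thioredoxin reductase, with a change of 0.13 [0.03 to 0.23], and GSR, glutathione reductase, with 0.20 [0.05 to 0.35]. GCLC, the catalytic partner of GCLM, and the cystine carrier SLC7A11 were not called either (0.13 [-0.0029 to 0.25] and -0.17 [-0.51 to 0.18]). With median-ratio scaling 5 of the 12 rose and with quantile normalisation 3 did.

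The GCLM promoter window is shown because it holds the letters TGACNNNGC, the core of the antioxidant response element, searched on both strands. It is the 250 bases before the start of the gene, chr1:93909431-93909680 of GRCh38.p14, minus strand, from RefSeq, with the match in capitals as it reads on the opposite strand:
GCLM: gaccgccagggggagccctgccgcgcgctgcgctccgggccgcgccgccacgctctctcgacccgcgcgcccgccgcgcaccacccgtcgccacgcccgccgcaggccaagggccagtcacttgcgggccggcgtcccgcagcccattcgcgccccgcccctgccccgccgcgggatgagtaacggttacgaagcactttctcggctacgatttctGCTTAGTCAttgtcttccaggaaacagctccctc
The match runs from 34 to 26 bases before the start. Promoter windows were matched for 5134 of 6304 tested genes, 309 of them risers and 129 fallers. The core was in 12.6% of risers, 12.4% of fallers, 12.5% of tested genes and 11% of all 27305 windows in the table. A match is a description of letters and not of a bound site.

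Lysosome and autophagy genes also included rises. Of 35 listed, 20 had a row, 19 were tested, 7 rose and 0 fell, against 6.11% and 2.05% of all rows. The median was 0.16, and 14 of the 19 were higher in 3 of 3 pairs, which 36% of all rows were. SQSTM1, the p62 receptor that carries cargo into autophagosomes (chromosome 5, 179806393 to 179838078), was at 7.22, 8.08 and 7.21 FPKM in the controls and 11.7, 12.1 and 13.3 FPKM with JOA (0.65, SE 0.06, adjusted p = 0.0278). TFE3, a transcription factor of lysosomal genes, went from 4.79, 5.02 and 5.16 to 7.95, 7.48 and 9.50 FPKM (0.63, SE 0.07, adjusted p = 0.0295). Both had groups far apart relative to the spread within each.

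TPP1, a lysosomal peptidase, went from 27.5, 23.6 and 27.3 to 36.7, 36.4 and 39.8 FPKM (0.51, SE 0.05, adjusted p = 0.0273). WIPI1, which binds early autophagosome membranes, went from 1.06, 1.06 and 1.41 to 2.09, 2.08 and 2.11 FPKM (0.51, SE 0.10, adjusted p = 0.0431). NAGLU, which degrades heparan sulfate, went from 5.26, 5.55 and 4.81 to 7.73, 6.78 and 7.36 FPKM, and the protease CTSB from 11.4, 12.8 and 12.01 to 15.2, 14.9 and 16.1 FPKM. Changes were 0.42, SE 0.07, adjusted p = 0.0374 for NAGLU and 0.33, SE 0.05, adjusted p = 0.0372 for CTSB. PSAP, the precursor of the saposins, was the most abundant, from 261, 250.5 and 244 to 293, 306 and 278 FPKM (0.21, SE 0.04, adjusted p = 0.0453). Under median-ratio scaling 6 of the 19 rose, all but PSAP. LAMP2, a lysosomal membrane protein, was not called, with a change of 0.0032 [-0.11 to 0.12].

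In the list of immediate early and ERK feedback genes, 39 were listed, 25 had a row and 17 were tested. Of these 5 rose and 0 fell, against 6.11% and 2.05% of all rows. Their median of 0.28 was like that of the NRF2 list. In 3 of 3 pairs 10 were higher and 1 lower, against 36% and 17.8% of all rows. After EGR1 the largest rise was in ETV5, an ETS factor that follows ERK activity, at 3.79, 5.32 and 2.51 FPKM in the controls and 7.38, 8.89 and 5.52 FPKM with JOA (0.78, SE 0.07, adjusted p = 0.0260). Pair 2 was the highest and pair 3 the lowest of each group, and the groups did not overlap. SPRED2, an inhibitor of the pathway, went from 4.63, 5.49 and 5.14 to 5.96, 6.94 and 6.99 FPKM (0.33, SE 0.05, adjusted p = 0.0349). The AP-1 member JUND (0.32, SE 0.04, adjusted p = 0.0301) and the zinc-finger factor KLF6 (0.30, SE 0.05, adjusted p = 0.0382) changed less. ZFP36, an RNA-binding protein that destabilises cytokine messages, missed the call narrowly: 9.35, 9.70 and 7.34 in controls and 12, 12.3 and 13.3 FPKM with JOA (0.48, SE 0.10, adjusted p = 0.0513). SPRY2, another feedback inhibitor, had a change of -0.09 [-0.21 to 0.03]. FOS and SPRY4 were under the filter.

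Among inflammatory genes of the NF-kB list, 2 of 11 tested rose and 0 fell, against 6.11% and 2.05% of all rows (26 listed, 15 with a row, median 0.10). CXCL8, the neutrophil chemokine interleukin-8, was at 1.09, 0.955 and 1.92 FPKM in the controls and 3.31, 2.85 and 5.51 FPKM with JOA (1.06, SE 0.08, adjusted p = 0.0234). Its level was low, with 38 to 208 reads a library, and the lowest JOA library was above the highest control. ICAM1, an adhesion receptor, went from 3.06, 3.02 and 2.33 to 4.55, 4.12 and 3.92 FPKM (0.45, SE 0.07, adjusted p = 0.0343). NFKBIA, a feedback inhibitor of NF-kB and its sensitive target, was at 11.02, 11.6 and 9.69 FPKM in the controls and 10.3, 11.6 and 10.3 FPKM with JOA and was not called, with a change of -0.0029 [-0.13 to 0.12]. CCL5 had a change of -0.18 [-0.30 to -0.07].

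The CXCL8 promoter window is shown for its AP-1 letters TGANTCA, searched on both strands. It spans chr4:73740319-73740568 of GRCh38.p14, plus strand, from RefSeq, with the match in capitals:
CXCL8: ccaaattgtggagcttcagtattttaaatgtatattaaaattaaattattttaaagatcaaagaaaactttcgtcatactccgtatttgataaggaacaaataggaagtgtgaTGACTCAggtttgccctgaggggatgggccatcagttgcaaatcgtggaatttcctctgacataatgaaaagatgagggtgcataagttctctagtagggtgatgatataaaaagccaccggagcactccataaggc
The match lies 137 to 131 bases before the start. These letters were in 5.5% of risers, 6.2% of fallers, 3.23% of tested genes and 6.6% of all windows.

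Myeloid identity genes mostly stayed uncalled, as did most tested rows. Of 13 tested myeloid and haematopoietic transcription factors (28 listed, 14 with a row), 3 rose and 0 fell. The 3 are 23.1% of the list, against 6.11% of all rows, and the list median was 0.05. CEBPB, a C/EBP factor of macrophage and granulocyte genes, went from 4.21, 4.41 and 3.90 to 7.72, 6.03 and 6.40 FPKM (0.57, SE 0.08, adjusted p = 0.0327), without overlap. TFEC, of the TFEB and TFE3 family, went from 4.49, 2.21 and 6.19 to 6.57, 2.72 and 9.45 FPKM (0.41, SE 0.08, adjusted p = 0.0442), and GATA2, a progenitor factor, from 12.1, 17.5 and 11.1 to 14.03, 22.4 and 14.8 FPKM (0.31, SE 0.05, adjusted p = 0.0374). In TFEC and GATA2 the groups overlapped, because pair 2 was the lowest in the first and the highest in the second, while each pair rose. SPI1, the PU.1 master factor, was at 67.1, 65.2 and 68.9 FPKM in the controls and 75.1, 66.9 and 73.3 FPKM with JOA with a change of 0.10 [-0.0045 to 0.20]. CEBPA was low, at 3.19, 3.56 and 3.50 FPKM in control libraries 1 to 3 and 3.61, 3.45 and 3.25 FPKM in JOA libraries 1 to 3, with a change of 0.01 [-0.17 to 0.19]. Reads at the RUNX1 row (0.11 [0.02 to 0.20]) and the RUNX1T1 row (-0.02 [-0.14 to 0.10]) include any from the fusion transcript, and neither row was called.

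The stem and progenitor list had 0 calls among 7 tested genes (7 of 25 listed), where 8.16% of all rows were called. KIT had a change of -0.10 [-0.20 to 0.0019], with both number 2 libraries highest, and FLT3 one of -0.02 [-0.17 to 0.13]. Of the genes known to be high in t(8;21) leukaemia, 6 of 13 were tested and 1 fell, TRH, the thyrotropin-releasing hormone precursor. TRH was at 151, 32.1 and 129 FPKM in the controls and 93.7, 25.1 and 69.4 FPKM with JOA (-0.63, SE 0.10, adjusted p = 0.0363). The groups overlapped widely because number 2 was low in both, and each pair fell. The maturation list had 1 call among 8 tested (28 listed): TNFSF13B, the B cell survival factor BAFF, went from 26.7, 26.9 and 22.2 to 18.7, 16.9 and 16.9 FPKM (-0.50, SE 0.06, adjusted p = 0.0295). Of 9 tested primary granule genes (17 listed), SRGN, the granule proteoglycan, rose from 49.2, 36.6 and 47.9 to 57.2, 52.9 and 60.01 FPKM (0.35, SE 0.06, adjusted p = 0.0402; not called with median-ratio scaling). MS4A3, a membrane protein of promyelocytes, fell from 2.96, 3.68 and 2.45 to 1.09, 2.11 and 1.24 FPKM (-0.71, SE 0.10, adjusted p = 0.0311). PRSS57, a granule serine protease, went from 645, 574 and 624 to 473, 521 and 487 FPKM and just missed the call (-0.31, SE 0.07, adjusted p = 0.0519); it was called lower with median-ratio scaling.

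The largest fall that the rule named among genes with no overlap was in HLA-DRA, the alpha chain of the HLA-DR class II molecule (chromosome 6, 32439887 to 32445046). It was at 21.2, 14.2 and 19.5 FPKM in the controls and 10.2, 8.25 and 9.69 FPKM with JOA (-0.89, SE 0.06, adjusted p = 0.0232), with 179 to 492 reads a library. Of 15 class II genes listed, 7 had a row and 4 were tested, and HLA-DRA was the 1 called; the other 3 tested are the RFX5, RFXAP and RFXANK subunits of the class II promoter complex, with changes of 0.15 [0.04 to 0.26], -0.09 [-0.27 to 0.09] and -0.11 [-0.28 to 0.07]. HLA-DRB1 and HLA-DPB1 were under the filter, below 1 FPKM in every library. In the class I list, 9 of 14 genes were tested, of which 1 rose and 2 fell. Of all rows 6.11% rose and 2.05% fell, which is the background for the class II list as well. The class I fallers were HLA-B and CALR, and CALR is described with the chaperones below. HLA-E, the non-classical molecule read by NK cells, rose from 76.2, 81.7 and 63.7 to 97.1, 114 and 88.4 FPKM (0.43, SE 0.04, adjusted p = 0.0273), while HLA-B fell from 12.97, 18.5 and 11.1 to 10.2, 13.9 and 6.87 FPKM (-0.44, SE 0.07, adjusted p = 0.0338), its groups overlapping and each pair lower. Reads of classical HLA genes can be shared among them, so the HLA-B level is uncertain.

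Other genes of the largest falls were of mixed function. PHPT1, a histidine phosphatase, was at 34.8, 28.1 and 32.3 FPKM in the controls and 19.6, 19.98 and 19.2 FPKM with JOA (-0.66, SE 0.07, adjusted p = 0.0295), and its 3 JOA libraries lay within 1 FPKM of each other. MDK, the growth factor midkine, went from 39.98, 36.2 and 31.9 to 25.2, 27.9 and 18.2 FPKM (-0.60, SE 0.08, adjusted p = 0.0311). TXNIP, which binds and inhibits thioredoxin, was at 69.7, 51.7 and 47.6 FPKM in control libraries 1 to 3 and 46.3, 43.1 and 28.6 FPKM in JOA libraries 1 to 3 (-0.52, SE 0.09, adjusted p = 0.0382); the fall was smallest in pair 2. COPS9, of the COP9 signalosome (-0.49, SE 0.08, adjusted p = 0.0365), the nucleosome-binding HMGN5 (-0.40, SE 0.04, adjusted p = 0.0260) and the poly(A) polymerase TENT5A (-0.39, SE 0.04, adjusted p = 0.0295) followed. IGLL1, the surrogate light chain gene, had the largest log2 change of any named gene that fell, from 2.87, 10.7 and 3.55 to 0.799, 4.83 and 0.866 FPKM (-1.13, SE 0.08, adjusted p = 0.0232), with both number 2 libraries high and groups that overlapped. The lowest IGLL1 library had 12 reads.

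TXNIP was 1 of 4 called among 9 tested genes of thioredoxins and peroxiredoxins (19 listed), all 4 lower, with a median of -0.09. Of all rows 2.05% fell. With median-ratio scaling 4 of the 9 fell, and with quantile normalisation 1 did. GPX4, the lipid hydroperoxide peroxidase, went from 142, 124 and 139 to 112, 109.9 and 113 FPKM (-0.27, SE 0.05, adjusted p = 0.0381). Catalase (CAT) went from 69.4, 58.8 and 75.1 to 60, 51.9 and 58.3 FPKM (-0.25, SE 0.05, adjusted p = 0.0442) and PRDX5 from 147, 135 and 139.5 to 119, 119.8 and 119 FPKM (-0.23, SE 0.04, adjusted p = 0.0397). All 3 enzymes remove peroxides. TXN and PRDX1 were not called (-0.01 [-0.14 to 0.13] and -0.04 [-0.14 to 0.05]).

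Nucleolar ribosome biogenesis genes had falls and no rises. All 23 with a row, of 40 listed, were tested. Of these 5 fell and 0 rose, against 2.05% and 6.11% of all rows. In 3 of 3 pairs 17 were lower, which 17.8% of all rows were. Their median was -0.13. LYAR, a nucleolar protein of early ribosome assembly, went from 34.2, 37.6 and 33.9 to 28.2, 28.8 and 28.1 FPKM (-0.30, SE 0.04, adjusted p = 0.0311). UTP20, of the small subunit processome, was at 8.42, 9.18 and 8.51 FPKM in the controls and 7.01, 7.37 and 7.15 FPKM with JOA (-0.25, SE 0.05, adjusted p = 0.0408). MYBBP1A (-0.26, SE 0.04, adjusted p = 0.0377), RRS1, which brings the 5S particle to the large subunit (-0.26, SE 0.04, adjusted p = 0.0381), and RRP1B (-0.18, SE 0.04, adjusted p = 0.0470) fell by like amounts. With median-ratio scaling 11 of the 23 fell, and with quantile normalisation 3 did. NOLC1 and DDX21, abundant nucleolar proteins, were not called on deposited FPKM (-0.17 [-0.26 to -0.07] and -0.16 [-0.26 to -0.07]).

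MYC, whose product drives these genes in many cells, was at 276, 316 and 300.0 FPKM in the controls and 293, 308 and 290.3 FPKM with JOA, and its change was 0.002 [-0.11 to 0.11], adjusted p = 0.981. In the MYC network list 0 of 9 tested genes were called, with a median of 0.07. Of all rows 8.16% were called, so 0 calls in a list this small say little about its genes. Of 13 tested ribosomal protein genes (76 listed, 14 with a row), RPS23 alone fell and 0 rose, against 2.05% and 6.11% of all rows. RPS23 went from 55.99, 49.3 and 56.1 to 43.95, 40.1 and 42.5 FPKM (-0.34, SE 0.04, adjusted p = 0.0295). The list median was -0.12, and 6 of the 13 were lower in 3 of 3 pairs, which 17.8% of all rows were. RPL41, RPL8 and RPL7A, the most abundant tested members, were not called (-0.23 [-0.36 to -0.10], -0.17 [-0.31 to -0.03] and -0.11 [-0.26 to 0.03]).

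The UTP20 promoter window is shown because it holds the E-box letters CACGTG, which MYC and TFE3 family factors are known to bind. It covers chr12:101279855-101280104 of GRCh38.p14, plus strand, from RefSeq, with the E-box in capitals:
UTP20: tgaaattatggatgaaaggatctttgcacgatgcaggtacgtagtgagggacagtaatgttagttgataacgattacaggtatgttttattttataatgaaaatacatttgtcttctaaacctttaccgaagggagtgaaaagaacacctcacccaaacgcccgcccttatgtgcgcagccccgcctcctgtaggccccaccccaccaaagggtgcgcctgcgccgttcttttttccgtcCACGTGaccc
The E-box lies 10 to 5 bases before the start. It was present in 15.5% of fallers (20 of 129), 9.39% of risers (29 of 309), 9.39% of tested genes and 6.49% of all windows. CDK4, which also fell, had 3 E-boxes in its window.

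Of 15 tested chaperone and unfolded protein response genes of the endoplasmic reticulum (27 listed), 3 fell and 0 rose, against 2.05% and 6.11% of all rows. Their median was -0.06. HSPA5, the luminal HSP70 chaperone BiP, was at 265, 276 and 317 FPKM in the controls and 230.3, 218 and 236 FPKM with JOA (-0.32, SE 0.05, adjusted p = 0.0365). CALR, calreticulin, went from 1133, 1161 and 1117 to 961, 1012 and 861 FPKM (-0.27, SE 0.05, adjusted p = 0.0462), and the disulfide isomerase PDIA6 from 97.2, 100.3 and 95.9 to 87.5, 83.5 and 79.1 FPKM (-0.23, SE 0.04, adjusted p = 0.0397). P4HB and CANX, other abundant folding factors, were not called (0.0039 [-0.11 to 0.12] and -0.16 [-0.26 to -0.06]). In the cytosol, 2 of 14 tested heat shock genes fell and 1 rose (22 listed; median -0.10). HSP90AB1, the constitutive HSP90, went from 1003, 993 and 985 to 840.5, 848 and 747 FPKM (-0.29, SE 0.05, adjusted p = 0.0397), its co-chaperone STIP1 fell (-0.20, SE 0.04, adjusted p = 0.0408), and BAG3, an HSP70 partner in selective autophagy, rose (0.25, SE 0.05, adjusted p = 0.0406; not called with median-ratio scaling). With that scaling 5 ER chaperone genes and 5 heat shock genes fell and 0 rose. With quantile normalisation 0 ER chaperone genes and 1 heat shock gene fell.

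The HSPA5 window is shown for its repeated CCAAT boxes, searched as CCAAT on both strands. It spans chr9:125241344-125241593 of GRCh38.p14, minus strand, from RefSeq, with the 4 matches in capitals:
HSPA5: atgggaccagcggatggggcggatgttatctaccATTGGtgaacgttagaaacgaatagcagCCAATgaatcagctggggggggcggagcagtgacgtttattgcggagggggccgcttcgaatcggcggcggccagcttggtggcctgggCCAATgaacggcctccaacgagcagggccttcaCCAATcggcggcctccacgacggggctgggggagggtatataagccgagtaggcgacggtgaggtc
A CCAAT box was in 39.5% of fallers, 28.5% of risers, 35.4% of tested genes and 33% of all windows.

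In the integrated stress response list, 2 of 15 tested genes rose (32 listed), CEBPB and PPP1R15A, the GADD34 subunit that restores translation, from 6.68, 7.06 and 8.18 to 7.64, 8.95 and 10.1 FPKM (0.25, SE 0.05, adjusted p = 0.0473; not called with median-ratio scaling). ATF4 itself was at 145, 142 and 131 FPKM in the controls and 142, 142 and 137 FPKM with JOA, a change of 0.01 [-0.08 to 0.10]. The list median was 0.02, below that of all rows, of which 6.11% rose.

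Of 15 tested sterol synthesis and uptake genes (26 listed), 4 fell and 1 rose, against 2.05% and 6.11% of all rows. Their median was -0.10, and 9 were lower in 3 of 3 pairs, which 17.8% of all rows were. With median-ratio scaling 6 of the 15 fell, and with quantile normalisation 1 did. HMGCS1, which makes HMG-CoA, went from 22.2, 22.5 and 32.02 to 18.3, 17.3 and 23.9 FPKM (-0.35, SE 0.04, adjusted p = 0.0295). Its groups overlapped since number 3 was high in both. MSMO1, a sterol demethylase, went from 12.3, 11.6 and 16.1 to 9.42, 10.2 and 11.4 FPKM (-0.33, SE 0.06, adjusted p = 0.0442). TMEM97, a regulator of sterol transport, fell (-0.30, SE 0.06, adjusted p = 0.0416), as did FDFT1, squalene synthase (-0.18, SE 0.04, adjusted p = 0.0442). STARD4, a sterol carrier, went the other way, from 5.33, 5.41 and 8.21 to 8.03, 6.40 and 10.8 FPKM (0.36, SE 0.07, adjusted p = 0.0442; not called with median-ratio scaling). SREBF2, the regulator of the pathway, was not called (-0.04 [-0.14 to 0.06]). Fatty acid synthase (FASN) was the 1 call among 6 tested genes of its list (12 listed), from 95.3, 103 and 109 to 105, 124 and 133 FPKM (0.23, SE 0.04, adjusted p = 0.0421); it was not called with median-ratio scaling.

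Cytokine signalling genes moved in both directions. In the JAK-STAT list 2 rose and 1 fell of 13 tested (20 listed), against 6.11% and 2.05% of all rows. Their median was 0.20, and 7 were higher in 3 of 3 pairs, which 36% of all rows were. PIM3 rose from 20.2, 24.9 and 22.8 to 28.3, 30.4 and 29.9 FPKM (0.38, SE 0.05, adjusted p = 0.0295), and its relative PIM1 fell from 9.86, 14.1 and 7.32 to 7.30, 9.57 and 4.83 FPKM (-0.47, SE 0.05, adjusted p = 0.0295). Both are survival kinases, and PIM1 is a common STAT5 target. In PIM1 the groups overlapped, and pair 2 was the highest throughout. STAT5B rose (0.22, SE 0.04, adjusted p = 0.0397; not called with median-ratio scaling), and STAT5A was close to the threshold (0.21, SE 0.05, adjusted p = 0.0526).

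Iron and haem genes gave 2 rises, FTH1 and BLVRB, and 1 fall among 10 tested (18 listed, median 0.13), against 6.11% and 2.05% of all rows. The fall was in ALAS1, the first enzyme of haem synthesis, from 37.2, 34.03 and 38.7 to 27.9, 30.4 and 30.9 FPKM (-0.29, SE 0.06, adjusted p = 0.0441). TFRC, the transferrin receptor, was not called (-0.18 [-0.29 to -0.06]). Of 11 tested actin and SRF genes (32 listed; median 0.07), 2 rose and 0 fell, RFLNB by the most.

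Cell division genes had few calls, and so did rows in general, of which 6.11% rose and 2.05% fell. The counts below are near those shares. Of 36 tested mitosis genes (44 listed), 1 rose and 0 fell, with a median of -0.0028. The riser was CDC25C, the phosphatase that activates CDK1, from 2.67, 3.40 and 2.74 to 3.42, 4.78 and 3.52 FPKM (0.31, SE 0.06, adjusted p = 0.0493; not called with median-ratio scaling). Of 32 tested replication genes (45 listed), 1 fell, MCM7 of the replicative helicase, from 106, 119 and 97.9 to 88.1, 94.1 and 84.1 FPKM (-0.27, SE 0.04, adjusted p = 0.0327), and the median was -0.03. Among cyclins and CDK genes (13 tested of 19), CDK4 fell from 42.9, 44.8 and 38.7 to 36.4, 37.97 and 34.2 FPKM (-0.21, SE 0.04, adjusted p = 0.0381) and RBL2, a relative of RB, rose (0.23, SE 0.05, adjusted p = 0.0441; not called with median-ratio scaling). MKI67, a proliferation marker, had a change of 0.12 [-0.03 to 0.27].

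Lists with 0 paired calls were p53 targets (9 tested of 25 listed), the BCL2 family (11 of 16), interferon-stimulated genes (16 of 47), glycolysis (9 of 21), chromatin regulators (15 of 28) and tubulins (4 of 13). With 8.16% of all rows called, 0 calls in lists this small say little about their genes. CDKN1A, the p21 inhibitor and main p53 target, was at 1.61, 1.78 and 1.53 FPKM in the controls and 1.87, 2.09 and 2.03 FPKM with JOA, a change of 0.18 [-0.03 to 0.40]. MCL1, a survival factor of myeloid blasts, had a change of 0.10 [0.01 to 0.20], and BIK, a killer member, one of -0.31 [-0.52 to -0.10]. A missed threshold does not show that these genes were unchanged.

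Single calls came from large complexes, where 6.11% of all rows rose and 2.05% fell. UQCR10 fell among 19 tested respiratory chain genes (58 listed; median -0.09) and PSMA7 among 15 tested proteasome genes (31 listed; median -0.07), at -0.27, SE 0.04, adjusted p = 0.0301 and -0.19, SE 0.03, adjusted p = 0.0408. Of 6 tested RNA polymerase II subunits (12 listed), POLR2L, a small shared subunit, fell from 42.5, 41.4 and 39.5 to 31.8, 30.2 and 31.7 FPKM (-0.39, SE 0.04, adjusted p = 0.0295), and POLR2A, the catalytic subunit, rose from 33.6, 34.9 and 33.2 to 38.4, 39.5 and 41.2 FPKM (0.22, SE 0.04, adjusted p = 0.0431; not called with median-ratio scaling). SRSF1 fell among 8 tested splicing factors and CLK kinases (24 listed; -0.21, SE 0.04, adjusted p = 0.0493). Of 3 tested nuclear long RNAs and snoRNA hosts (18 listed), NEAT1 and MALAT1 rose, MALAT1 by less (0.21, SE 0.04, adjusted p = 0.0454; not called with median-ratio scaling).

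**Figure D4:**
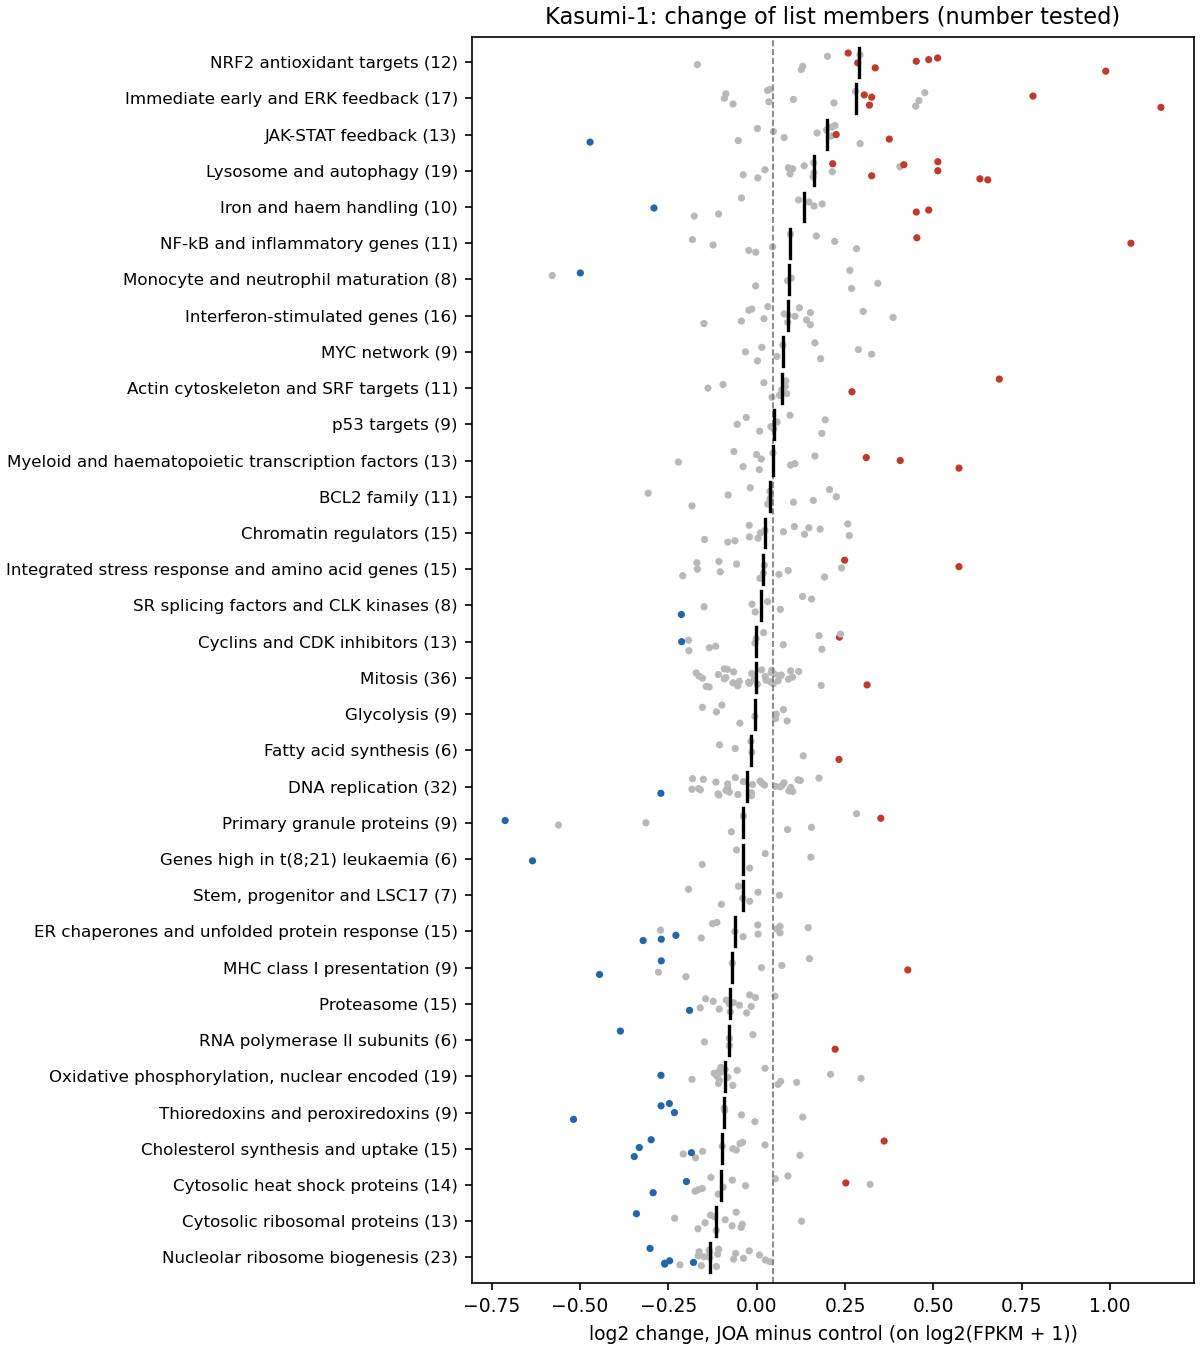
Change with JOA (log2(FPKM + 1), JOA minus control) of the tested members of each list with at least 6 tested; the number tested is in brackets. Points are genes, red where they rose, blue where they fell and grey where not called; black bars are list medians and the dashed line is the median of all tested rows, 0.05. The NRF2 list has the highest median, 0.29, and nucleolar ribosome biogenesis the lowest, -0.13.

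By amount of RNA, the largest gains among called genes with a symbol were in PRDM8, HLA-E, APLP2, an amyloid precursor-like protein (0.29, SE 0.04, adjusted p = 0.0295), PGD, TM7SF3 (0.22, SE 0.03, adjusted p = 0.0348; not called with median-ratio scaling) and PSAP. The largest losses among called genes with a symbol were in HSP90AB1, CALR, PTMA (-0.27, SE 0.05, adjusted p = 0.0372), HSPA5, PEBP1 (-0.28, SE 0.04, adjusted p = 0.0308) and HMGN2 (-0.26, SE 0.04, adjusted p = 0.0318). Of these losses, CALR, PTMA, HSPA5 and HMGN2 were not called with quantile normalisation. Called rows without a symbol held larger gains and losses. Among these the largest gain was in a row that went from 1595 to 2427 FPKM on average, and the largest losses were in rows that went from 1927 to 1368 and from 1434 to 977.9 FPKM. What these rows are is not named by the gene tables used here. Of rows without a symbol 344 (5.95%) rose and 96 (1.66%) fell, against 397 (6.26%) and 153 (2.41%) of rows with one.

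The largest changes rested on few reads. Of 28 risers at 2-fold or more, 24 had fewer than 10 recovered reads in their lowest library, and 1 had 100 or more in every library. Among the 9446 tested rows with 100 or more reads, 598 rose with a median of 0.31 and 210 fell with a median of -0.26. The 868 rows with fewer than 10 gave 67 risers with a median of 0.92. Among microRNA genes, 58 rows were tested and 11 (19%) rose, and 12 of the 13 called in either direction had fewer than 10 reads in their lowest library. MIR6739, one of the 15 largest risers by the naming rule, rested on 3 to 9 reads and MIR3176 on 6 to 14. These are reads of an mRNA library at microRNA loci and not of mature microRNAs.

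**Figure D5:**
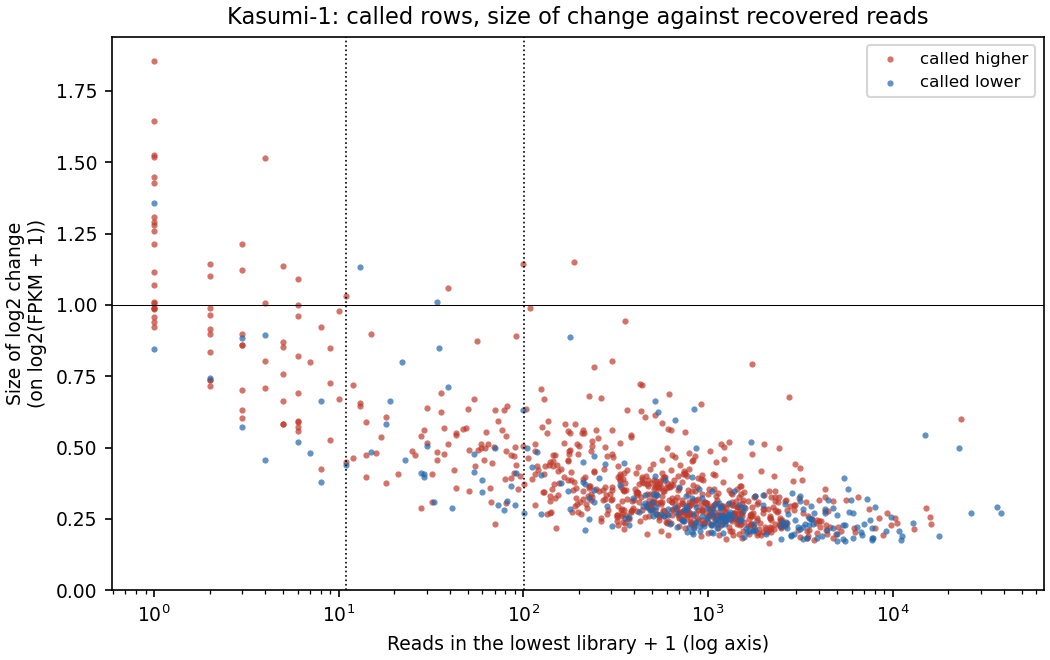
Size of the log2 change against the recovered reads in the lowest library plus 1 (log axis) for called rows, red for higher and blue for lower with JOA. Dotted lines mark 10 and 100 reads and the horizontal line a 2-fold change. Of 28 risers at 2-fold, 24 lie left of the first dotted line.

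The median gene model was 5.22 kb in risers, 3.19 kb in fallers and 4.73 kb in all tested rows. In 5 bins of about 2424 rows each, from the shortest to the longest models, the share that fell was 3.22, 3.05, 2.1, 1.2 and 0.701%, and the share that rose was 6.23, 5.24, 5.32, 7.3 and 6.48%. The part of length in the falls was not tested.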

How the data were processed

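RNA of Kasumi-1 cells was sequenced in 3 control and 3 JOA libraries. The authors deposited FPKM values per row, per the file name and the values, and the tools Cufflinks, HISAT2, HTSeq and Trimmomatic and the build hg38 are given, without versions or roles, per the submitters' processing notes. Rows are labelled with sequence records; 10899 of 29053 (37.51%), holding 45.77% of the FPKM, were matched to a gene symbol by record, ignoring the version, and 87 symbols lay on more than 1 row. Of the 12130 tested rows 6346 (52.32%) had a symbol. Low FPKM values were whole multiples of 1 step per row and library, which returned whole reads for 99.97% of rows within a tolerance of 0.02, up to a common factor. Whether strand was used in counting is not given in the sources used here, so overlapping and antisense genes are uncertain.

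Rows at 1 FPKM in at least 3 libraries were tested with limma 3.58.1 (R 4.3.3, Python 3.11.15) on log2(FPKM + 1) with a variance trend, first with no block and then with the library number as a block. The pairing comes from the values and not from a label: the deviations of same-numbered libraries correlated at 0.329, 0.499 and 0.423. Library profiles had Pearson's r of 0.9732 to 0.9864 over rows, and no pair of libraries had identical values in more than 0.107% of them. A row was called where the Benjamini-Hochberg adjusted p was under 0.05. Since the unpaired test called 0 rows, genes are named from the paired one. No count model was run, because the deposited unit is FPKM. The fits were also run on simulated data built from their own fitted variances, and that run is not support for the calls.

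Named genes are the 15 largest rises and 15 largest falls among paired calls with a symbol, no overlap and a higher group mean of at least 5 FPKM; the 6 largest gains and 6 largest losses in FPKM; up to 6 called and 3 uncalled members per list; and a fixed set. CIITA, CD74, HMOX1 and DUSP6 of that set are not analysed here. Other genes named were chosen after their values were seen. The lists, rules and tests were chosen with earlier results of these data known. Alternatives were the pseudocount, filters, scalings, the variance trend and leaving out libraries or pairs. Promoters and coordinates come from RefSeq, GRCh38.p14, and the motifs shown were chosen after their matches were seen. The NB4 table of the study was not used here. A few single genes are not reported here.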

Additional observations from a re-analysis of the deposited data

How the results depend on the processing

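Without pairing, limma called 0 rows under every scaling, filter, pseudocount and left-out library tried (1323 to 2763 rows at an unadjusted p under 0.05), against 990 with the replicate block. The 990 paired calls (741 higher, 249 lower) became 951 with a pseudocount of 0.1 and 956 (468 and 488) with median-ratio scaling. Quantile normalisation gave 504 (309 and 195, with 300 and 153 shared), a filter at 5 FPKM 1502 (1006 and 496), and a minimum of 10 recovered reads in 3 libraries, chosen after seeing the data, 1509 (1107 and 402). The count was 0, higher and lower alike, without the filter (4272 rows at an unadjusted p under 0.05), without the variance trend (3496), with no replicate block (1986), and from 0 to 0 without replicate 1, 2 or 3 (2598 to 3204). Risers were 74.8% of calls, 67% with the 5 FPKM filter, 61.3% with quantile normalisation and 49% with median-ratio scaling. Of 211 named genes 95 were called. All 95 lost the call in each of the settings that gave 0. Of the 95, 36 lost it with quantile normalisation, 13 with median-ratio scaling and 1 with a pseudocount of 0.1. None of the 95 reversed direction, while uncalled genes such as MYC changed sign with median-ratio scaling. The cause of these shifts was not tested. Depth limits rows with under 10 reads, 868 of those tested. FPKM without counts allows no counting interval.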

Other observations

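The following genes were chosen after their values were seen, and are given as values. MAFG and MAFK, small partners of NRF2 that were on no list, both rose. MAFG went from 8.75, 9.51 and 10.1 to 12.8, 12.4 and 14.9 FPKM (log2 change 0.46, SE 0.05, adjusted p = 0.0295) and MAFK from 4.56, 5.15 and 3.88 to 6.75, 6.99 and 6.24 FPKM (0.47, SE 0.06, adjusted p = 0.0295), with no overlap in either. Further lysosomal genes rose as well. HGSNAT and HPSE, which with NAGLU act on heparan sulfate, went from 8.52, 8.54 and 8.81 to 11.97, 12.7 and 13.8 FPKM (0.52, SE 0.05, adjusted p = 0.0260) and from 6.03, 4.04 and 6.47 to 8.86, 5.67 and 10.8 FPKM (0.52, SE 0.06, adjusted p = 0.0295). The mannose 6-phosphate receptor IGF2R (0.32, SE 0.04, adjusted p = 0.0295) and the lysosomal membrane protein DRAM1 (0.41, SE 0.04, adjusted p = 0.0260) were also higher. For HPSE and IGF2R the groups overlapped. Among metabolic genes, PLIN2, which coats lipid droplets, went from 9.28, 9.13 and 8.96 to 15.2, 13.9 and 12.6 FPKM (0.56, SE 0.05, adjusted p = 0.0273). SAT1, the polyamine acetyltransferase, went from 15.1, 14.4 and 15.96 to 23.1, 19.5 and 26.4 FPKM (0.56, SE 0.06, adjusted p = 0.0295). The lipid-sensing receptor PPARA (0.42, SE 0.06, adjusted p = 0.0301) and SCAP, the escort of SREBP (0.22, SE 0.04, adjusted p = 0.0391; not called with median-ratio scaling), rose by less.

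Surface and signalling genes moved in both directions. IL6R, the interleukin-6 receptor, went from 1.63, 1.54 and 1.70 to 2.77, 2.65 and 3.19 FPKM (0.56, SE 0.08, adjusted p = 0.0311). SERPINB9, the granzyme B inhibitor, rose (0.53, SE 0.06, adjusted p = 0.0295), as did the adaptor GAB2 (0.45, SE 0.04, adjusted p = 0.0260) and the transcription factor MEF2D (0.41, SE 0.05, adjusted p = 0.0301). The C-type lectin receptors CLEC4E and CLEC4D, neighbours in 1 gene cluster, both fell. CLEC4E went from 4.13, 2.05 and 4.25 to 1.64, 0.804 and 1.12 FPKM (-1.01, SE 0.12, adjusted p = 0.0295) and CLEC4D from 7.69, 3.75 and 6.49 to 4.33, 0.997 and 3.95 FPKM (-0.85, SE 0.13, adjusted p = 0.0358), with 33 to 181 and 34 to 280 reads a library. In CLEC4D the groups overlapped, since number 2 was lowest in both. Growth-related genes outside the lists that fell included UTP18 of the small subunit processome (-0.30, SE 0.04, adjusted p = 0.0338), the histone chaperone NPM3 (-0.25, SE 0.04, adjusted p = 0.0397), and the snoRNA host RNAs DANCR (-0.29, SE 0.05, adjusted p = 0.0372) and SNHG19 (-0.30, SE 0.06, adjusted p = 0.0480). For NPM3 and DANCR the groups overlapped, and in DANCR number 2 was the highest of each group. NPM3, DANCR and SNHG19 were not called with quantile normalisation.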
